A study of Rattus norvegicus with 17 samples.

Results

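The genes described here are 10 genes of T lymphocytes in rat skin: Cd3e, Cd3d, Cd3g, Cd2, Cd4, Cd8a, Cd5, Lck, Zap70 and Ptprc. They were chosen by name, through probes whose sequence accession maps to one of them, and no measured value entered the choice. All 10 genes had a named probe, with 11 probes in all because Ptprc had 2, out of 15154 named genes and 30367 probes on the array. Of the 10 genes, 9 were bright enough to be tested and Cd8a was too dim.

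The skin came from male CD hairless rats (written CD Haireless in the labels), aged 2 to 3 months when the study began. One group was exposed to 94 GHz millimetre waves for 3 hours a day on 3 days a week over 5.5 months, and the other group was sham exposed on the same schedule. Explants of whole skin were hybridised to 1-colour arrays, with 9 arrays from exposed rats and 8 from sham rats. The study's design text gives 6 exposed and 8 sham rats, and the labels tie no array to an animal. If that text holds, some of the 9 exposed arrays share an animal, and which ones do is not known. The p-values below therefore measure the spread between arrays and may be too small.

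T cells recognise peptides through a receptor whose signalling part is CD3, a set of invariant chains without which the receptor does not reach the cell surface. When the receptor binds, the kinase Lck phosphorylates the CD3 chains, Zap70 docks there and passes the signal on, and the phosphatase CD45, encoded by Ptprc, keeps Lck ready to act. Skin holds resident T cells in the epidermis and dermis, and in rodents the epidermis also holds gamma delta T cells. In RNA of whole skin, fewer T cells and less RNA per T cell cannot be told apart.

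The CD3 genes lie side by side. Cd3g, Cd3d and Cd3e follow each other on chromosome 8, and Cd3g and Cd3d are read in opposite directions away from a shared stretch. The promoter windows of these chains are shown because the chains varied together between explants, that of Zap70 because it varied with Cd3d and Cd3g, and that of Cd247 because it was closest to the mean of the chains. Each window is the 250 bases upstream of the gene's start in RefSeq's rat assembly GRCr8, in the direction of the gene. Capitals mark AGGAAG, or its reverse complement CTTCCT, the letters that ETS family factors are known to bind.
Cd3g: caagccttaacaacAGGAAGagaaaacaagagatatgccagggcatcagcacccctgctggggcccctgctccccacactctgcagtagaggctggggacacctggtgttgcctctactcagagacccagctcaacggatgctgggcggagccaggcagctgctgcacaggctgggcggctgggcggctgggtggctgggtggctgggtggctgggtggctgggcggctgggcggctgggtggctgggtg
Cd3d: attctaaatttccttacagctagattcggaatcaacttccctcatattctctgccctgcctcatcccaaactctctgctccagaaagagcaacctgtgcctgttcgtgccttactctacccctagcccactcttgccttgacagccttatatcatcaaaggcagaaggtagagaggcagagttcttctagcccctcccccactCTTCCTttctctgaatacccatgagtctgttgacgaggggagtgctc
Cd3e: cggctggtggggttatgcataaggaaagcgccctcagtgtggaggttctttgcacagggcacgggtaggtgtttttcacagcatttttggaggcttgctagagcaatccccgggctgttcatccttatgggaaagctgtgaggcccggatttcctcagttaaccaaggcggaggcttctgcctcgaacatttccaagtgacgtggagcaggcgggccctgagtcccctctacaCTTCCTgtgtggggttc
Zap70: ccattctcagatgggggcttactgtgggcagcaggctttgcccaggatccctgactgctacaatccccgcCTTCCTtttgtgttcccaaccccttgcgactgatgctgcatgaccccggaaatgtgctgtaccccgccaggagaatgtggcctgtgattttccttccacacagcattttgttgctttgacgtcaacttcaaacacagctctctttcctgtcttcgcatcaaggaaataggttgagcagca
Cd247: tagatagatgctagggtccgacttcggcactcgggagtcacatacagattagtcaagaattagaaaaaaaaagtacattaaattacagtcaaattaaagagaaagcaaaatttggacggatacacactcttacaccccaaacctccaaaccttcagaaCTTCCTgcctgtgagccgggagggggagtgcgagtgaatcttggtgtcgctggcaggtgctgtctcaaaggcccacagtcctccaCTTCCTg
The windows are chr8:54183919-54184168 on the minus strand for Cd3g, chr8:54185269-54185518 on the plus strand for Cd3d and chr8:54211771-54212020 on the minus strand for Cd3e. Those of Zap70 and Cd247 are chr9:46485355-46485604 and chr13:80576019-80576268, both on the plus strand.

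The marked match began 17 bases upstream of the start in Cd3e, 47 in Cd3d, 180 in Zap70 and 236 in Cd3g, and Cd247 held 2 matches. Promoter windows were given for 9 of the 10 T cell genes, all but Cd4, and Lck had 2, which makes 10 windows. AGGAAG on either strand was in 8 of the 10 windows and in 29.51% of all 33469 rat promoter windows of that length. The windows of Cd2 and Cd8a held none. CAGNTG, an E-box, was in 5 of the 10 windows and in 43.31% of all windows. TGTGGT, a RUNX-type core, was in 2 of the 10 and in 14.47% of all, and TATAAA was in none of the 10 and in 12.93% of all. Both strands were searched for each motif, and matches of different motifs may share bases. A match is a description of the window and not a binding site.

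Array values are log2 signals relative to the 75th percentile of each array, so 0 is the level of a bright probe and each step of 1 is a doubling. They compare arrays for 1 probe and not 1 probe with another. Feature Extraction marks each spot that is well above its background, and a probe was taken as detected on an array if 50% or more of its spots carried that mark. The 75th percentile signal was 1077 to 1703 across the 17 arrays, and 66.7% to 70.8% of probes were well above background. All 9 structural skin genes looked up, among them the basal keratin genes Krt5 and Krt14, were detected on all 17 arrays. Sham replicates 6 and 5 stood apart from the rest, holding the highest value of 14.6% and 13.9% of the tested probes, against 2.6% to 7.4% for each of the other arrays. Replicate numbers only name arrays. Leaving out either array, or any other, gave no adjusted call between exposed and sham skin.

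Detection differed between the T cell genes. Cd3e, Cd3d, Cd3g, Cd2, Cd5, Zap70 and Ptprc were well above background on all 17 arrays. Lck was so on 8 of 9 exposed and 8 of 8 sham arrays, and Cd4 on 9 of 9 exposed and 6 of 8 sham arrays. Cd8a, the alpha chain of the coreceptor of cytotoxic T cells, was so on 1 of 9 exposed and 2 of 8 sham arrays. When every spot of a probe had to be well above background, Cd5 was detected on 7 exposed and 4 sham arrays, Cd4 on 8 exposed and 3 sham arrays, Lck on 8 exposed and 6 sham arrays, and Cd8a on 0 exposed and 1 sham array.

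How exactly an array measured each gene depended on its spots. Cd3d, Cd3g and the brighter Ptprc probe had 10 spots per array, and the others had 2. Disagreement between spots accounted for 0.55% of the variance between arrays for Ptprc, 1.1% for Cd3g, 1.3% for Cd3d and 9.8% for Zap70. The share was 18.7% for Cd3e and 22.7% for Cd4, and it reached 40.3% for Lck, 60.3% for Cd5 and 76.0% for Cd2. For Cd2 and Cd5 most of the spread between explants was therefore of the size of the disagreement between spots on 1 array. The SD over the 17 arrays ran from 0.20 for Cd3d to 0.44 for Cd4 on the log2 scale, against a median of 0.19 over all 20710 probes tested.

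No difference between exposed and sham skin was detected for any of the 9 T cell genes tested. In limma's moderated test with Benjamini-Hochberg adjustment over 20710 probes, 0 of the 9 passed an adjusted p of 0.05, as did 0% of all probes. At an unadjusted p under 0.05 the count was also 0 of 9 in that fit, against 4.55% of all probes, 0.594% on the higher and 3.96% on the lower side. Of the 9 genes, 3 had a higher mean in exposed skin and 6 a lower one, with a median log2 difference of -0.03, and 61.3% of all probes had a difference below 0 with a median of -0.02. The 95% interval of the difference lay within a 1.5-fold change either way for 8 of the 9, against 87.4% of all probes. The exception was Cd4. Exposed and sham arrays overlapped for each of the 10 genes, and 0.00483% of all probes had groups that did not.

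**Figure D1:**
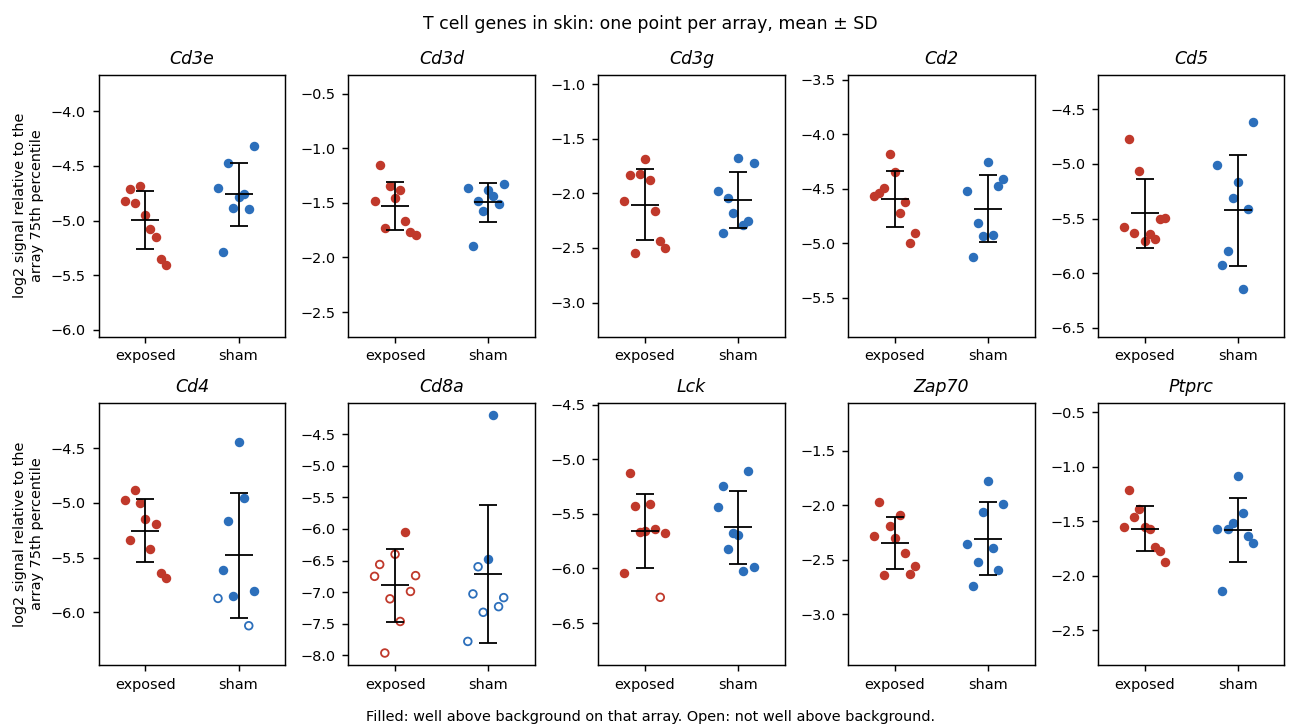
Log2 signal relative to each array's 75th percentile for the 10 T cell genes, with 1 point per array, exposed (9 arrays) left of sham (8 arrays), and bars for the mean ± SD. Filled points are well above background and open points are not. The groups overlap in every panel, and for Cd8a 1 sham array stands apart at -4.19.

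Among the CD3 chains, Cd3e, which encodes the epsilon chain, had the smallest p. It was -5.41 at its lowest, -4.95 at its median and -4.68 at its highest in exposed skin, against -5.28, -4.77 and -4.32 in sham skin. The lowest 2 arrays were exposed and the highest 2 were sham, and the ranges overlapped over most of their length. The means were -5.00 ± 0.27 in exposed skin and -4.76 ± 0.29 in sham skin (SD, n = 9 and 8), a difference of -0.24 with a 95% interval of -0.51 to 0.03 and 2 of 9 exposed arrays above the sham mean. Its unadjusted limma p was 0.0832 and its adjusted p 0.983. Over 28 alternatives the unadjusted limma p ran from 0.011 to 0.357 and was under 0.05 in 4. It was 0.011 with the normexp background correction and 0.0415 with array weights. Without sham replicate 2 it was 0.0182, and without exposed replicate 4 it was 0.0491. The adjusted p-values of these 4 ran from 0.788 to 0.966. As a ratio, exposed over sham was 0.848 with an interval of 0.702 to 1.02. The Cd3e probe was dim, with 2 spots per array and a signal of 28.8 to 73.0.

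Arrays were scanned slide by slide, and within slides the Cd3e difference took both signs. It was 0.20 within slide 1, -0.29 within slide 2, -0.56 within slide 3 and -0.76 within slide 4. Slides 1 to 4 held 3, 4, 1 and 1 exposed arrays and 2, 2, 1 and 3 sham arrays, so slide 3 gave a value with no test. With slide as a block the Cd3e difference was -0.26.

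Cd3d and Cd3g encode the delta and gamma chains. Cd3d was -1.79 at its lowest, -1.48 at its median and -1.15 at its highest in exposed skin, against -1.90, -1.46 and -1.32 in sham skin. The highest array was exposed and the lowest was sham. The means were -1.53 ± 0.22 in exposed and -1.49 ± 0.18 in sham skin (SD, n = 9 and 8), a difference of -0.03 with an interval of -0.24 to 0.17 and an adjusted limma p of 0.988.

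Cd3g was -2.55, -2.07 and -1.68 at its lowest, median and highest in exposed skin, against -2.36, -2.11 and -1.68 in sham skin. Its lowest 3 values were those of exposed arrays, while the highest values of both groups matched. The means were -2.10 ± 0.33 in exposed and -2.06 ± 0.26 in sham skin (SD, n = 9 and 8), with a difference of -0.04, an interval of -0.33 to 0.25 and an adjusted limma p of 0.989. Leaving out 1 array at a time moved the Cd3g difference between -0.09 and 0.02, so its sign was not fixed. Within slides the differences were 0.18, 0.07, -0.38 and -0.37 for Cd3d and 0.02, 0.22, -0.76 and -0.41 for Cd3g, in the order of slides 1 to 4.

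The probes of both coreceptors were near background on some arrays. Cd4 encodes the coreceptor of helper T cells, and in rats the protein is also found on macrophages. Cd4 was -5.68, -5.20 and -4.88 at its lowest, median and highest in exposed skin, against -6.12, -5.71 and -4.44 in sham skin. Sham arrays held both ends of the range, and the exposed arrays lay between them. The means were -5.25 ± 0.29 in exposed and -5.48 ± 0.57 in sham skin (SD, n = 9 and 8). The difference of 0.23 had the widest interval of the 9 genes, -0.20 to 0.66, with an adjusted limma p of 0.983. Without sham replicate 5 it was 0.37, with an unadjusted limma p of 0.0399 and an adjusted p of 0.801. With the normexp background correction the difference was -0.037, and within slides 1 to 4 it was 0.68, 0.32, -1.20 and -0.06, with an unadjusted limma p of 0.0126 within slide 1. Over 27 alternatives for Cd4 the unadjusted limma p ran from 0.0126 to 0.915 and was under 0.05 in these 2 only, without sham replicate 5 and within slide 1.

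Cd8a was -7.96, -6.75 and -6.04 at its lowest, median and highest in exposed skin, against -7.78, -7.06 and -4.19 in sham skin. Sham replicate 6 was the highest by far, and most of the other values were not well above background. No difference was tested for Cd8a.

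Cd2 and Cd5 are surface proteins of T cells, an adhesion receptor and a brake on receptor signalling. Cd2 was -5.00, -4.56 and -4.18 at its lowest, median and highest in exposed skin, against -5.13, -4.67 and -4.25 in sham skin. Cd5 was -5.70, -5.58 and -4.77 in exposed skin, against -6.15, -5.36 and -4.62 in sham skin, in the same order. Most exposed Cd5 values sat close together while the sham values were spread out, with an SD of 0.32 in exposed and 0.51 in sham skin. The difference was 0.08 for Cd2 (interval -0.19 to 0.36, adjusted limma p 0.983) and -0.03 for Cd5 (interval -0.44 to 0.38, adjusted limma p 0.994). Within slides 1 to 4 it was 0.29, 0.41, -0.74 and -0.31 for Cd2, and 0.14, 0.03, -0.34 and -0.10 for Cd5.

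Lck and Zap70 are the first kinases of the receptor's cascade. Lck, which phosphorylates the CD3 chains, was -6.26, -5.65 and -5.12 at its lowest, median and highest in exposed skin, against -6.02, -5.68 and -5.10 in sham skin. Zap70, the kinase that docks on phosphorylated CD3 chains, was -2.64, -2.30 and -1.97 in exposed skin, against -2.74, -2.38 and -1.78 in sham skin. For both genes the groups covered nearly the same range. The difference was -0.03 for Lck (interval -0.36 to 0.30, adjusted limma p 0.991) and -0.04 for Zap70 (interval -0.32 to 0.24, adjusted limma p 0.988). Within slides 1 to 4 it was -0.19, 0.15, -0.58 and 0.03 for Lck, and 0.25, 0.04, -0.85 and -0.23 for Zap70.

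Ptprc encodes CD45, which all leukocytes carry. Its brighter probe was -1.88, -1.56 and -1.21 at its lowest, median and highest in exposed skin, against -2.14, -1.58 and -1.09 in sham skin. Both the lowest and the highest array were sham. The difference was 0.01, with an interval of -0.23 to 0.26 and an adjusted limma p of 0.995. The other Ptprc probe gave -0.20 with an adjusted limma p of 0.983, and the values of the 2 probes correlated at 0.725 over the 17 arrays, given as a description. Within slides 1 to 4 the brighter probe gave 0.45, -0.01, -0.68 and -0.29.

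**Figure D2:**
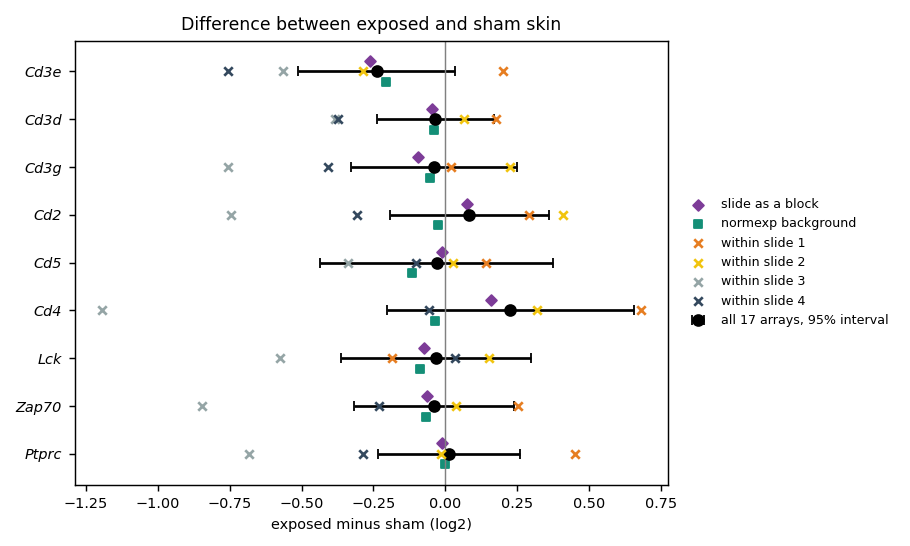
Exposed minus sham difference in log2 for the 9 T cell genes tested. Black points and bars are all 17 arrays with the 95% interval, and coloured marks are slide as a block, the normexp background correction and each slide alone. Every interval crosses 0, and the slide 3 marks, from 1 exposed and 1 sham array, lie left of 0 for all 9 genes.

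All 9 genes were lower in the exposed than in the sham array of slide 3. Those arrays are exposed replicate 8 and sham replicate 5. No difference between the means of the 4 slides was detected either, with limma F-test p-values of 0.251 to 0.983 and adjusted p-values of 0.730 to 0.994 for the 9 genes. Across all probes, 0% passed an adjusted p of 0.05 between slides and 8.9% an unadjusted one.

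Several of the T cell genes varied together from explant to explant. Of 36 pairs among the 9 genes, 32 had a Pearson r above 0 over the 17 arrays, with a median of 0.52. Over all pairs of named genes the median r was 0.0071 and 6.42% exceeded 0.5. In a two-sided permutation test with 100000 resamples, adjusted over the 36 pairs, 13 pairs passed 0.05, and 20 passed it unadjusted. With Spearman's rho, 9 pairs passed the adjusted permutation test.

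The count of 13 rested partly on single arrays. It was 8 without sham replicate 2, 7 without exposed replicate 4, 5 without sham replicate 5, 8 without exposed replicate 8 and 8 without exposed replicate 9. Removing the mean of each group first gave 16 pairs, and removing the mean of each slide gave 17. Both counts permuted all 17 centred values freely and took no account of the removed means. They may be too high and do not show stronger relations. The 5 pairs that passed whichever single array was left out were Cd3d with Cd3g, Cd3d with Cd3e, Cd3d with Zap70, Cd3g with Zap70 and Cd3d with Ptprc.

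Cd3d and Cd3g were the closest pair. Their r was 0.81 and rho 0.82, with a permutation p of 7e-05 for each and adjusted p-values of 0.00252 for r and 0.0018 for rho. Without the 2 arrays farthest from the median of Cd3d the r was 0.84, with slide means removed 0.85, and within slide 2, the one slide with 6 arrays, 0.76. In exposed arrays alone it was 0.87 and in sham arrays alone 0.70. Cd3e, which shares the locus, correlated with Cd3d at an r of 0.74 and a rho of 0.78 (adjusted permutation p 0.00549 and 0.0027). That r was 0.68 without 2 arrays, 0.74 with slide means removed and 0.37 within slide 2.

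Zap70, on another chromosome, varied with Cd3g and Cd3d, while its relation with Cd3e did not pass (r 0.49, rho 0.50, adjusted permutation p 0.0832 and 0.103). With Cd3g its r was 0.80 and rho 0.81 (adjusted permutation p 0.00252 and 0.0018), and r was 0.78 without 2 arrays, 0.81 with slide means removed and 0.15 within slide 2. With Cd3d its r was 0.77 and rho 0.79 (adjusted permutation p 0.00528 and 0.0027), and r was 0.67 without 2 arrays, 0.80 with slide means removed and 0.35 within slide 2. Both values of r were lower among the 6 arrays of slide 2 than over all arrays, and Cd3e with Zap70 was at -0.32 there. Cd3d and Ptprc had an r of 0.74 and a rho of 0.60 (adjusted permutation p 0.00554 and 0.0492), with 0.53 without 2 arrays, 0.79 with slide means removed and 0.76 within slide 2.

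The other 8 pairs that passed had an r of 0.57 to 0.70. Cd3g with Cd2 and Cd3d with Cd2 kept a permutation p under 0.05 without the 2 outermost arrays, at r of 0.80 and 0.55. The other 6 relations had a permutation p above 0.05 over the remaining 15 arrays. Their r there was 0.39 for Cd3e with Cd3g, 0.37 for Cd3d with Cd5, 0.41 for Cd2 with Ptprc, 0.46 for Cd4 with Ptprc, 0.46 for Cd5 with Zap70 and 0.49 for Zap70 with Ptprc.

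**Figure D3:**
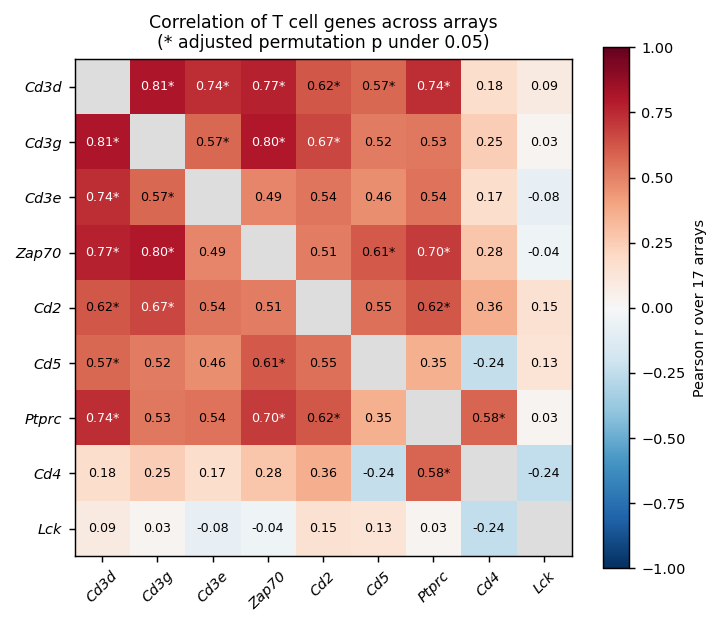
Pearson r over 17 arrays for each pair of the 9 T cell genes tested, printed in each square and coloured from blue at -1 to red at 1. Stars mark an adjusted permutation p under 0.05. The highest values are those of Cd3d with Cd3g (0.81) and of Zap70 with Cd3g (0.80), and the Lck row and column lie between -0.24 and 0.15.

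Lck passed with none of the other T cell genes and Cd4 with 1. Lck had an r between -0.24 and 0.15 with each of the other 8 genes, the smallest adjusted permutation p being 0.472. Its probe was dim, with a signal of 15.3 to 41.5, and spots accounted for 40.3% of its variance. In the exposed arrays its r with Ptprc was 0.60 and in the sham arrays -0.43. With the normexp background correction its r was 0.57 with Cd5, 0.46 with Cd3e and 0.46 with Cd2, while it stayed at -0.01 with Cd3g and 0.09 with Zap70. Cd4 had an r of 0.17 with Cd3e, 0.18 with Cd3d and 0.25 with Cd3g, none of which passed. Cd4 passed with Ptprc, at an r of 0.58 and a rho of 0.60 (adjusted permutation p 0.045 and 0.0492). In the exposed arrays alone Cd4 had an r of 0.80 with Cd3e and 0.82 with Cd2, and in the sham arrays 0.09 and 0.12. With normexp these relations were at 0.52 and 0.73 over all 17 arrays.

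The mean of the 3 CD3 chains, each centred on its own mean, gave 1 value per explant. It ran from -0.41 to 0.26 in exposed skin and from -0.35 to 0.37 in sham skin. The lowest explants were exposed replicates 9 and 8 and sham replicate 2, and the highest were sham replicate 8, exposed replicate 2 and sham replicate 5, so both groups held both ends. From lowest to highest, the explants differed 1.7-fold in this mean.

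Genes of like pattern were ranked by Pearson r with that mean over the 17 arrays, among 11153 named genes outside the T cell genes, whose median r was 0.04. The first was Cd247, which encodes the zeta chain of the same receptor complex, with an r of 0.84. It was followed by Dennd1c at 0.75, Mmp16, a membrane-bound matrix protease, at 0.74, and Ptprcap, which encodes a protein associated with CD45, at 0.72. Arhgap45, Radil and the leukocyte GTPase gene Rac2 were at 0.69, 0.69 and 0.68, then Prr16 at 0.68 and Akna at 0.67. Prr16 was detected on 12 of the 17 arrays and the others named here on all.

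The correlation of Cd247 with the CD3 chains did not rest on single arrays. Its r was 0.80 to 0.89 when 1 array was left out, 0.78 without the 2 outermost arrays and 0.85 with slide means removed. Between groups Cd247 was -2.38 ± 0.37 in exposed skin and -2.29 ± 0.23 in sham skin (SD, n = 9 and 8), a difference of -0.08 with an interval of -0.39 to 0.23.

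The other lists of T cell genes followed the CD3 chains to different degrees. Of 14 genes of receptor signalling and costimulation, 12 had a probe and 8 were bright enough. All 8 had an r above 0 with the CD3 mean, with a median of 0.58, from 0.33 for Lcp2 to 0.84 for Cd247. The median was 0.31 for the 4 measured subset and cytokine genes, 0.33 for 7 genes of resident and gamma delta T cells and 0.31 for 7 genes of cytotoxic and NK cells. It was 0.46 for 10 pan-leukocyte genes, 0.34 for 10 macrophage genes and 0.38 for 8 mast cell genes. The 2 measured genes of Langerhans and dendritic cells, Cd74 and RT1-Da of antigen presentation, had a median of 0.52. The other 4 genes of that list with a probe, Xcr1, Clec9a, Zbtb46 and RT1-Ba, were too dim. For 5 muscle genes it was 0.03, and for 4 hair follicle genes -0.29. These are descriptions over the same 17 arrays, and the genes share libraries and scaling.

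**Figure D4:**
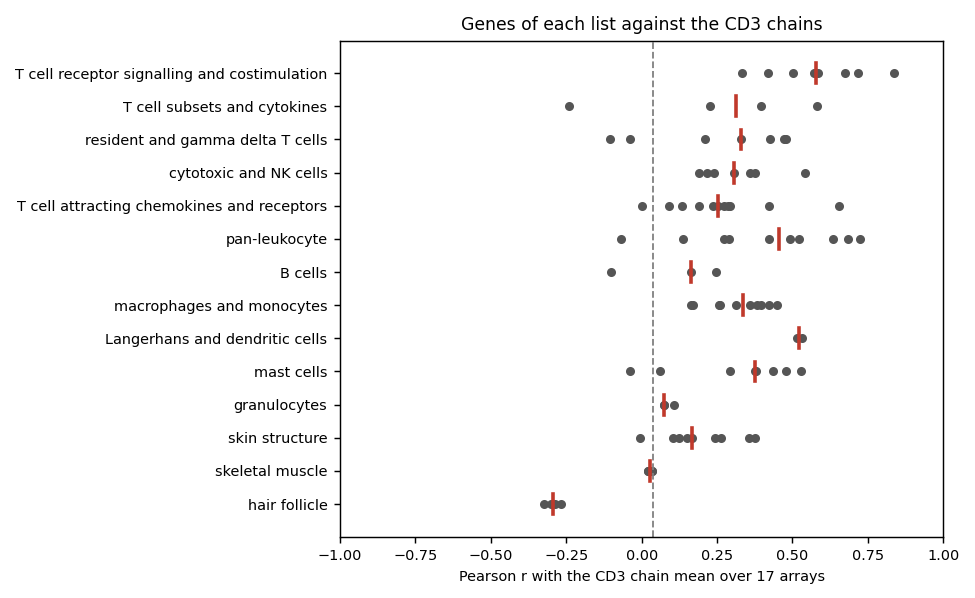
Pearson r with the CD3 chain mean over 17 arrays for each measured gene of 14 lists, 1 point per gene, with the list's median as a red bar and the median of all named genes as a dashed line. The 8 receptor signalling genes have the highest median, and the 4 hair follicle genes lie left of 0.

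To see which other cells the T cell genes varied with, each of the 9 genes was correlated with 6 list scores, which made 54 relations. A score is the mean centred log2 value of a list's measured genes, none of which is a T cell gene described here. In the two-sided permutation test adjusted over the 54 relations, 6 passed.

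Ptprc and the pan-leukocyte score were the closest, with an r of 0.95, a rho of 0.91 and a permutation p of 1e-05, the smallest that 100000 resamples can give (adjusted p 0.00054). The r was 0.92 without 2 arrays, 0.95 with slide means removed and 0.90 within slide 2. Cd4 and the macrophage score had an r of 0.79 and a rho of 0.80 (adjusted permutation p 0.00189 for r), with 0.68 without 2 arrays, 0.83 with slide means removed and 0.57 within slide 2. Both relations passed whichever single array was left out. In exposed arrays alone the Cd4 relation had an r of 0.51, and in sham arrays alone 0.88.

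Over all 17 arrays Cd4 varied with macrophage genes, and its relations with the CD3 chains did not pass. In the exposed arrays its r with Cd3e, 0.80, was above its r with the macrophage score. Sham replicates 5 and 6 had the highest macrophage scores, and sham replicate 5 also had the highest Cd4 value of -4.44. The CD3 chains had an r of 0.30 for Cd3e, 0.44 for Cd3d and 0.36 for Cd3g with the macrophage score, and none passed the adjusted permutation test. The difference between the correlations of Cd4 and of the CD3 chains was not itself tested.

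**Figure D5:**
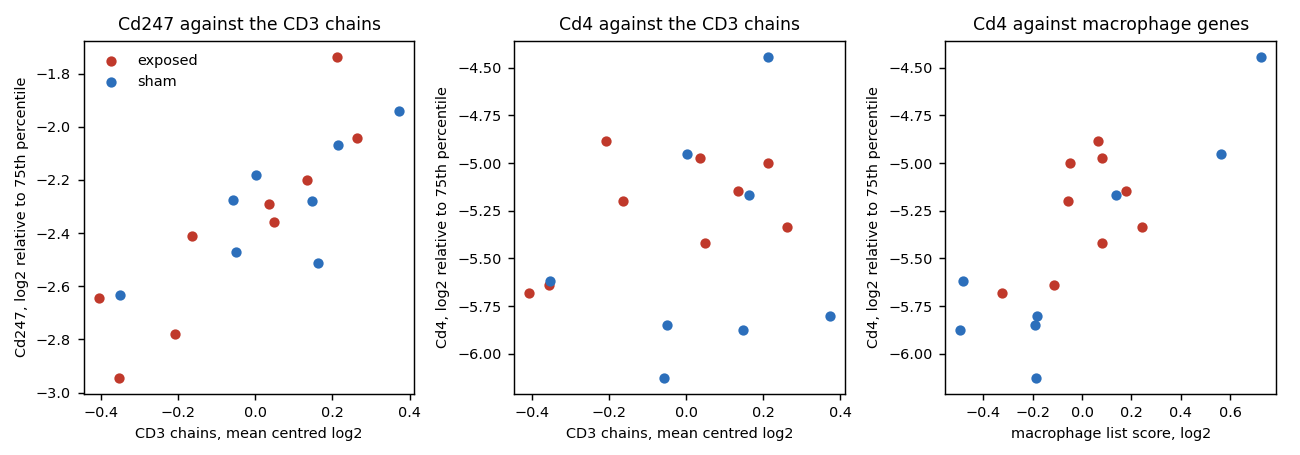
Scatter plots over 17 arrays of Cd247 against the CD3 chain mean, Cd4 against the CD3 chain mean and Cd4 against the macrophage score, all in log2, with exposed arrays in red and sham arrays in blue. Cd247 climbs with the CD3 chains (r 0.84), and Cd4 climbs with the macrophage score (r 0.79) in the third panel.

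Ptprc also passed with the macrophage score at an r of 0.76 (adjusted permutation p 0.00605), Cd3d with the pan-leukocyte score at 0.75 (0.00605), Zap70 with the mast cell score at 0.75 (0.00605) and Zap70 with the pan-leukocyte score at 0.70 (0.0109). With slide means removed these were 0.76, 0.78, 0.81 and 0.69, and within slide 2 they were -0.12, 0.73, 0.49 and 0.60. Without the 2 outermost arrays the Cd3d relation had an r of 0.51 and a permutation p of 0.0536. Without sham replicate 5, 3 of the 54 relations passed. Lck passed with no score.

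No relation with the scores of the tissue around the T cells passed. With the hair follicle score 8 of 9 genes had an r below 0, with a median of -0.40, and none passed the adjusted permutation test. These values rested on the outermost arrays. Without the 2 arrays farthest from the median of that score, r ran from -0.25 for Zap70 to 0.12 for Cd2. With the muscle score the median was 0.01. Both scores differed widely between explants. The hair follicle score ran from -3.16 to 2.12 in exposed skin and from -7.89 to 2.17 in sham skin, and the muscle score from -3.76 to 5.99 in exposed skin and from -3.82 to 5.40 in sham skin. Their part in the differences between exposed and sham skin was not tested.

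The lists of T cell function were compared between exposed and sham skin in the same limma fit, and no gene of any list passed the adjusted test. Of 8 receptor signalling genes, 5 had a higher and 3 a lower mean in exposed skin, with a median difference of 0.06. Lat, the scaffold that Zap70 phosphorylates, had the smallest p in that list, at -2.78 ± 0.25 in exposed and -2.94 ± 0.41 in sham skin (SD, n = 9 and 8), a difference of 0.16 with an interval of -0.17 to 0.49.

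Of 11 subset and cytokine genes with a probe, 5 were detected on no array. They are Ifng, Il4, Il2, Cd40lg and Ctla4, the first 3 of which encode cytokines of activated T cells. Foxp3, the regulator of regulatory T cells, was detected on all 17 arrays and differed by 0.03 (interval -0.23 to 0.30), and the costimulator gene Icos was too and differed by 0.11 (interval -0.23 to 0.44). Tbx21, the regulator of type 1 T cells, had the smallest p in that list. It was 4.67 ± 0.26 in exposed and 4.89 ± 0.19 in sham skin (SD, n = 9 and 8). The difference was -0.22, with an interval of -0.45 to 0.01 (adjusted limma p 0.983). The Tbx21 probe had 1 spot per array and was bright, at 4.33 or more on all 17 arrays. Its r with the CD3 mean was 0.23, rank 2338 of 11153. Whether this signal came from T cells was not tested. Among genes of resident T cells, Il7r, which encodes a survival cytokine receptor, differed by -0.25 (interval -0.67 to 0.17) on its brighter probe. The other Il7r probe gave -0.12 (interval -0.44 to 0.20).

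Cytotoxic genes had a lower mean in exposed skin for 6 of 7 measured members, with a median of -0.17. Over all probes, 61.3% had a difference below 0. Sham replicate 6 held the highest value of 3 of the 7 genes and the lowest of 0. The median of the list without that array was not computed. Of the 7 genes, 1 reached an unadjusted limma p under 0.05 on the lower side, against 3.96% of all probes. That gene was Klrk1, which encodes the activating receptor NKG2D. It was -1.94, -1.76 and -1.52 at its lowest, median and highest in exposed skin, against -1.84, -1.51 and -1.36 in sham skin. The groups overlapped, with 2 of 9 exposed arrays above the sham mean. The difference was -0.17 (interval -0.33 to -0.01), with an unadjusted limma p of 0.034 and an adjusted p of 0.983. The unadjusted limma p was 0.0568 with median scaling, 0.0709 with array weights, 0.0503 in the value table and 0.0729 without sham replicate 6, the array where Klrk1 was highest. Over the alternatives for Klrk1 it ran from 0.00852 to 0.540 and was under 0.05 in 16 of 30. The 30 include another Klrk1 probe, which was well above background on only 1 of 9 exposed and 2 of 8 sham arrays. That dim probe was left out of the main fit. Without a detection filter it gave -0.39, with an unadjusted limma p of 0.0292.

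Among 11 chemokine and receptor genes that guide T cells, 6 had a higher and 5 a lower mean in exposed skin. Ccl19, which attracts T cells through CCR7, had the smallest p of that list, at -0.17 ± 0.85 in exposed and -0.61 ± 0.60 in sham skin (SD, n = 9 and 8), a difference of 0.45 with an interval of -0.27 to 1.16.

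Lists of other leukocytes gave no call either. The gene with the smallest p was Cd37 for pan-leukocyte genes (difference 0.16), Pax5 for B cells (-0.14), Itgam for macrophages (0.18), RT1-Da for Langerhans and dendritic cells (-0.11), Tpsb2 for mast cells (0.36) and S100a9 for granulocytes (0.58), each with an adjusted limma p of 0.983. The B cell genes Cd79b and Cd22 were detected on no array.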

How the data were processed

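RNA of skin explants was labelled with Cy3 and hybridised to 17 1-colour arrays, 1 per sample. The scanner files hold fluorescence intensity per spot, read by the authors with Agilent Feature Extraction (version 10.7.3.1, protocol GE1_107_Sep09), per the file headers; the processed signal is background-subtracted within each array and not scaled between arrays. The deposited value table holds log2 values of 14853 probes, centred per probe. Its columns correlated at 0.981 or more with scanner values centred alike and had medians from -0.037 to 0.041, so scale, centring and direction were read from the data, while its scaling step stays unknown. Of the T cell genes it holds Cd3d, Cd3g, Zap70 and Ptprc, and it served as an alternative.

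The log2 processed signal was set relative to the 75th percentile of its array and averaged over the spots of a probe (62976 spots per array, none saturated), with control spots and outlier-flagged spots left out. Probes well above background on at least 8 arrays were tested, 20710 in all. Accessions were matched to symbols of a RefSeq table of GRCr8, for 17998 of 30367 probes. Where a gene had several probes, the brightest on average was used. The 2 groups were compared by limma (version 3.58.1, R 4.3.3) without covariates; the number of arrays limits the precision. Correlations used two-sided permutation tests. The scripts were tested on simulated data.

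Alternatives were other scalings, normexp background correction with an offset of 50, other detection filters, slide as a fixed or random block, each slide alone, array weights, the value table, other probes of a gene and leaving out each array. Named genes were the 10 T cell genes, the measured gene with the smallest p in each immune list and the 10 genes closest to the CD3 chains, 1 of which is not reported here. Other list genes named with values were chosen after their values were seen. The genes and lists were chosen with earlier results of these data known.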

Additional observations from a re-analysis of the deposited data

Results flagged for a closer look

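In 4 of 48 groups of arrays, the outermost array stood further from its nearest neighbour, relative to the range of its group, than Dixon's 95% critical value allows. Chance alone gives this in about 1 in 20 groups. Cd3d in sham replicate 2 was -1.90, against -1.58 for the nearest sham array. Cd8a in sham replicate 6 was -4.19, against -6.47 for the nearest sham array. Itgam in sham replicate 6 was -3.41, against -4.62 for the nearest. Tpsb2 in sham replicate 6 was -6.47, against -5.07 for the nearest.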

How the results depend on the processing

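No probe passed the adjusted limma test between exposed and sham skin under any alternative run. Of 1353 recomputed values, 1236 counted as the same, 62 lost a call or were a smaller count, 53 changed sign and 2 moved. Values with an adjusted p had to keep their direction and their side of the threshold to count as the same. Counts and SDs were judged by size, and differences within slide 3 and correlations without 2 arrays by sign alone. Correlations with the CD3 mean were not held against a threshold. No paired analysis was possible because the labels carry no replicate numbers, and the numbers used here only name arrays. The signs of small differences were not stable, and the cause was not tested. With normexp background correction the difference was -0.025 for Cd2, -0.037 for Cd4, -0.0025 for Ptprc, -0.0035 for Itgam and -0.055 for Cd37. With slide as a block Ptprc was -0.0097, and its other probe gave -0.20. Within slide 1 the opposite sign was seen for Cd3e (0.20), Cd3d (0.18), Cd3g (0.020), Cd5 (0.14), Zap70 (0.25), Il7r (0.30), Pax5 (0.13) and RT1-Da (0.39). Within slide 2 it was seen for Cd3d (0.066), Cd3g (0.22), Cd5 (0.029), Lck (0.15), Zap70 (0.038), Ptprc (-0.014), Ccl19 (-0.35) and S100a9 (-0.93). Within slide 3 it was seen for Cd2 (-0.74), Cd4 (-1.20), Ptprc (-0.68), Itgam (-0.070) and Lat (-0.66). Within slide 4 it was seen for Cd2 (-0.31), Cd4 (-0.057), Lck (0.033), Ptprc (-0.29), Cd37 (-0.27) and Itgam (-0.54). Leaving out 1 array moved the difference between -0.092 and 0.016 for Cd3g, -0.13 and 0.085 for Cd5, -0.099 and 0.044 for Lck, -0.10 and 0.036 for Zap70 and -0.066 and 0.085 for Ptprc. The count of pairs that passed lay between 5 and 17 when 1 array was left out, and that of relations with scores between 3 and 7. With normexp, 9 relations with scores passed. When every spot had to be well above background, Cd5 was detected on 11 arrays and Cd8a on 1. Dim probes limit the values of Cd8a, Lck, Cd4, Cd5, Cd3e and Cd2.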

Other observations

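Cd8a and Cd8b encode the 2 chains of the CD8 coreceptor of cytotoxic T cells, and both were highest in the same explant, sham replicate 6. The genes named here were chosen after their values were seen. Cd8a was -4.19 there, against -7.96 to -6.04 on the other 16 arrays, and Cd8b was -3.56 there, against -5.49 to -4.42. Of the 7 measured cytotoxic and NK cell genes, 3 were highest in that explant: Cd8b, Klrk1 at -1.36 and Nkg7, a cytotoxic granule gene, at -2.82. Prf1, which encodes perforin, was above 15 of the other 16 arrays at -4.47. The rest of that list ranked lower, with Gzmb above 14, Gzma above 10 and Cd7 above 6 of the other 16 arrays. Ccl5, a chemokine of cytotoxic T cells, was -0.56 there, against -3.62 to -1.75 elsewhere. Of 11 measured chemokine and receptor genes, Ccl5 was the 1 that was highest there. The others ranged from Cxcl9, above 15 of the other 16 arrays, to Ccl21, Ccl17 and Ccl22, each above 1.

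The other T cell genes ranked high, middle and low in that explant. Il7r was highest there on its brighter probe at -3.51, as was Lcp2, an adaptor of receptor signalling, at -3.62. On its other probe Il7r was -5.30 there and not highest, against -5.09 in sham replicate 1. Cd4 was above 14 of the other 16 arrays at -4.95. Cd3d was above 10 and Cd3g above 4 of the other 16 arrays. Cd5, Lat, Icos, Cxcr6, Cd27, Sit1, Ccr10 and Blk were lower there than on any other array. Of 8 receptor signalling genes 3 were lowest and 1 highest there. Of 7 genes of resident and gamma delta T cells, 3 were lowest and 1, Il7r on its brighter probe, was highest. Of 10 macrophage genes, 3 were highest there, namely Cd68, Adgre1 and Itgam. Of all tested probes, 14.6% were highest and 10.4% lowest on that array, and its 75th percentile signal of 1077 was the lowest of the 17. The part of the array as a whole in these values was not tested.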
